A study of Mus musculus with 4 samples.

Results

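The genes described here are 10 enzymes of aldehyde reduction, glutathione metabolism and antioxidant defence, taken by name from the 27998 genes of the deposited count matrix. They are the aldo-keto reductases Akr1b7 and Akr1b8, the glutathione transferases Gsta1, Gsta4, Gstm1 and Gstm3, the peroxidase Gpx2, the quinone reductase Nqo1, and Gclc and Gclm, the subunits of glutamate-cysteine ligase. All 10 were in the matrix. They were listed by name and not by a threshold, but with earlier results of these data known, so their counts beside those of all genes are a description. The cells came from small intestines of mice on a control diet or on a ketogenic diet, a diet high in fat and very low in carbohydrate, and each diet had 2 libraries. The cell table gives the mice as male in both diets, and strain, age and time on diet are not stated in the labels. The number of animals behind a library is not stated either, so p-values measure only the spread between these libraries. The cells carried 1 of 7 deposited types: stem, transit amplifying, enterocyte, goblet, Paneth, enteroendocrine and tuft.

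Aldo-keto reductases use NADPH to turn reactive aldehydes and ketones into alcohols. Glutathione transferases join such electrophiles to glutathione, the main thiol of the cell, and glutathione peroxidases use it to reduce peroxides. The transcription factor NRF2, held back by KEAP1 in unstressed cells, is known to drive many of these genes through antioxidant response elements (AREs) in their regulatory DNA. In the intestine these enzymes meet dietary electrophiles and the aldehydes that form when lipids are oxidised.

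Akr1b8 and Akr1b7 are neighbours on chromosome 6 (mm10), both on the plus strand. Akr1b8 lies at chr6:34354119-34368463 and Akr1b7 at chr6:34412334-34423142, with 43870 bases between them. Their upstream sequences are shown because Akr1b8 rose on the ketogenic diet and its neighbour did not. That of Gclm (gene at chr3:122245557-122270732, plus strand) is shown because it was the one member window with an ARE core. The sequences are RefSeq's (GRCm38.p6, plus strand, 5′ to 3′), each ends at the base before the gene's start, and capitals mark matches to the ARE core or the GC box. They cover chr6:34353896-34354118, chr6:34412112-34412333 and chr3:122245307-122245556, in the order printed.
Akr1b8: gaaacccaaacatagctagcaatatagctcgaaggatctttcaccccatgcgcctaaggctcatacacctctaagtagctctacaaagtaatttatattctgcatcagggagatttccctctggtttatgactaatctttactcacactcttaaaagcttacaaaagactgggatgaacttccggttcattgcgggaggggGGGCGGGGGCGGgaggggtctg
Akr1b7: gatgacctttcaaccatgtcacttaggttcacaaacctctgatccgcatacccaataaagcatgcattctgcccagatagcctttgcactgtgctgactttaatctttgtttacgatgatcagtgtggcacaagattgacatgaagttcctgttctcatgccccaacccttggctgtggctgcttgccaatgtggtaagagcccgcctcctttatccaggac
Gclm: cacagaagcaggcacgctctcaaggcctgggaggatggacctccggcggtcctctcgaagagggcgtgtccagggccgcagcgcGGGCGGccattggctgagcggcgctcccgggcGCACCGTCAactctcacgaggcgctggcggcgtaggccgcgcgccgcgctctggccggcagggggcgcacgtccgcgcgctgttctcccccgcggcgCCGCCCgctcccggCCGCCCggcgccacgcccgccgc

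RefSeq's promoter table held a window, from 250 bases before to 50 after the start, for 8 of the 10 genes. Gsta4 and Gclc were not in it. Only the 250 bases before the start were searched, in members and in all other genes, and below a window means these bases. The windows were searched on both strands for the ARE core TGACNNNGC, the GC box GGGCGG, the AP-1 site TGACTCA, the TATA motif TATAAA and the PPAR-type direct repeat, 2 copies of AGGTCA with 1 base between them. An AP-1 site can overlap an ARE core, and matches were counted for each motif on its own. The ARE core was in the window of Gclm and of no other member, against 10.2% of all 32851 promoter windows. The GC box was in those of Akr1b8, Gstm3, Nqo1 and Gclm, against 32.7% of all windows. The TATA motif was in those of Akr1b8, Gstm1 and Nqo1, against 12.4% of all windows. The AP-1 site was in no member window, against 4.46% of all windows. The direct repeat matched in 0 members and in 0.0335% of all windows. The longest run that the Akr1b8 and Akr1b7 sequences share was 8 bases. A match is a string of letters and not a measured binding site.

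Levels are given as CPM, UMIs per 1000000 UMIs of a library's cells of that type after TMM scaling. The libraries held 3549 and 4896 cells on the control diet and 3194 and 3414 cells on the ketogenic diet, with 27316428 to 34106639 UMIs per library. Enterocytes were the most numerous type, with 1748 to 2771 cells per library. Library pairs shared 10 to 26 cell barcodes. The summed markers of each type were highest in the type they name, except that the Paneth class carried goblet markers at a summed 59891 to 97433 CPM, against 70852 to 86110 CPM in goblet cells. Among enterocytes, 4.45% and 3.93% of control cells and 12.7% and 7.28% of ketogenic cells had 50% or more mitochondrial UMIs. The summed level of 8 villus base genes, none of them at 0, was 9170 and 7141 CPM in control enterocytes and 4514 and 4679 CPM in ketogenic ones. Summed distal small intestine markers were at 495 and 185 CPM in control and at 233 and 224 CPM in ketogenic enterocytes. Villus tip genes were at 204 and 96.0 CPM and at 82.8 and 69.5 CPM, in the same order. On both lists control library 1 was the highest. Proximal markers were at 160 and 197 CPM in control and at 204 and 146 CPM in ketogenic enterocytes. The part of these differences in the diet results below was not tested.

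Diets were compared with edgeR's quasi-likelihood test on the summed UMIs of each type, with Benjamini-Hochberg adjustment over all genes tested and a threshold of 0.05. Log2 fold changes are ketogenic over control, with standard errors (SE) and n = 2 libraries per diet.

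Akr1b8 was the one gene of the 10 that edgeR called as higher in enterocytes, the absorptive cells of the villus. None was called as lower. Its product reduces aldehydes, including those formed from oxidised lipids. Akr1b8 stood at 4.18 and 2.95 CPM in the control libraries and at 24.3 and 18.1 CPM in the ketogenic libraries, from 57 to 353 UMIs. Both ketogenic values lay far above both control values. The change was 6.0-fold, a log2 fold change of 2.59 ± 0.23 (adjusted p = 0.0129). In all, edgeR called 21 of 11697 genes tested in enterocytes, which is 0.18%, with 9 higher on the ketogenic diet, 0.0769%, and 12 lower, 0.103%. Over 9 alternative settings, those that leave out a library included, Akr1b8 kept adjusted p-values from 2.95e-16 to 0.0308.

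Akr1b7, which encodes a closely related reductase, was at 2.80 and 3.89 CPM in control enterocytes and at 2.41 and 1.41 CPM in ketogenic enterocytes. The diets did not overlap, with the ketogenic libraries lower, but the difference did not pass the test (-0.81 ± 0.34, adjusted p = 0.502). The level rests on 185 UMIs in all enterocytes. Of the 50-base words in the last 500 bases of the Akr1b8 transcripts, 4.66% occur in another gene, mostly Akr1b10. Akr1b10 itself was at 5.0 and 6.63 CPM in control and at 4.90 and 4.64 CPM in ketogenic enterocytes (-0.28 ± 0.22, adjusted p = 0.701).

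**Figure D1:**
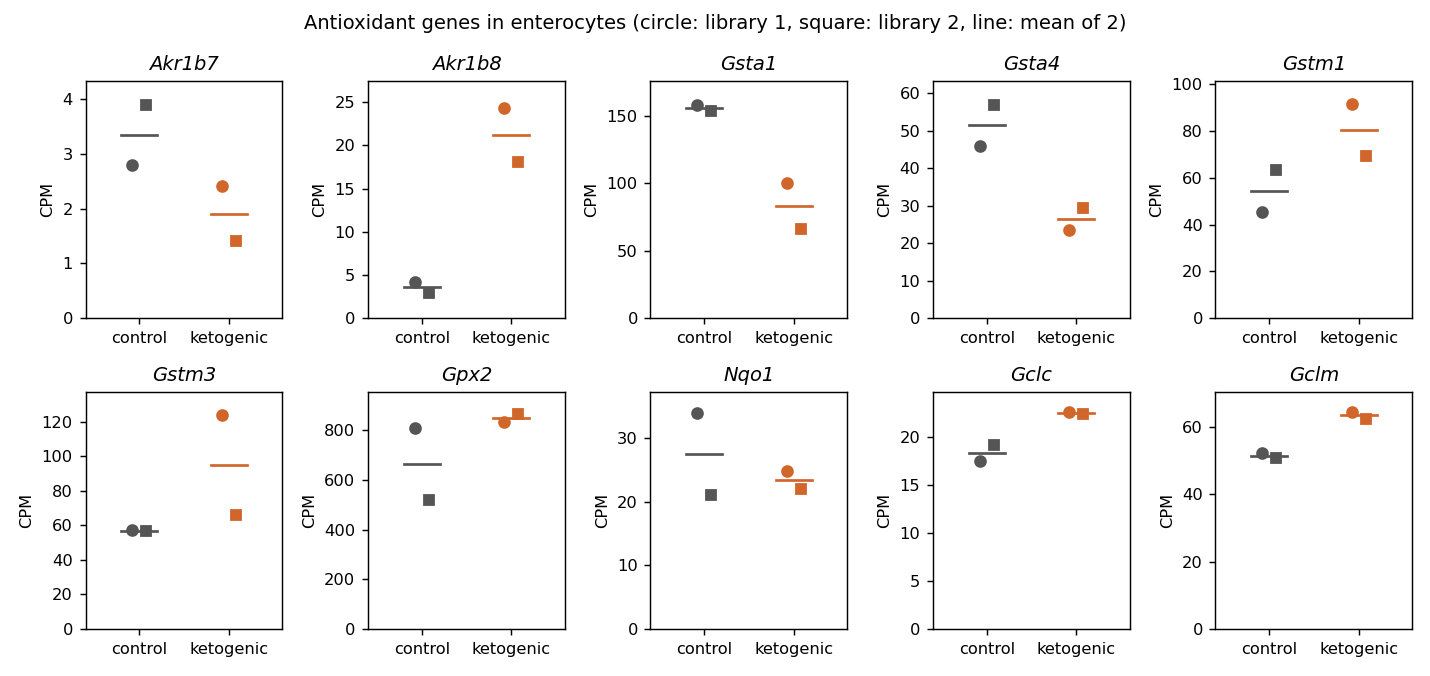
Levels of the 10 genes in enterocytes, in CPM (y axis, from 0, a scale for each gene), for the control and ketogenic libraries; points are libraries and lines the mean of 2. Akr1b8 goes from 4.18 and 2.95 to 24.3 and 18.1 CPM, and Nqo1 is the gene whose diets overlap.

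The other genes of the set moved less in enterocytes. Of the 10, 6 were higher in both ketogenic libraries than in both control libraries and 3 were lower in both, against 21.2% and 22% of all genes tested. An unadjusted p under 0.05 was reached by 8 of the 10, 5 higher and 3 lower, against 9.91% of all genes. The median log2 fold change of the 10 was 0.31, and 0.016 over all genes tested. DESeq2 called 3 of the 10, Akr1b8, Gsta1 and Gsta4, and 1.5% of all genes.

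Among the transferases, the 2 alpha-class genes were lower on the ketogenic diet and the 2 mu-class genes higher, and none of the 4 passed the edgeR test. Gsta4, whose product prefers the lipid aldehyde 4-hydroxynonenal, lies at chr9:78182774-78209349, plus strand. It was at 46.0 and 56.9 CPM in control enterocytes and at 23.5 and 29.4 CPM in ketogenic enterocytes. The ketogenic libraries were both lower (-0.94 ± 0.16, adjusted p = 0.104, and 0.000224 by DESeq2).

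Gsta1 (chr9:78230656-78242684, plus strand) encodes an alpha-class enzyme that handles many electrophiles and organic peroxides. Its enterocyte level was 158 and 153 CPM on the control diet and 100 and 66.4 CPM on the ketogenic diet. The diets did not overlap (-0.89 ± 0.18, adjusted p = 0.164, and 0.000315 by DESeq2). Of the 50-base words at the end of its transcripts, 91.7% occur in Gm3776, Gsta2 or Gm10639, so reads of these copies cannot be told apart with certainty. Gsta2 and Gm10639 were each under 1 CPM in every enterocyte sum. The count matrix held no gene named Gm3776, so its level could not be read. Without control replicate 1 or without control replicate 2, both alpha-class genes passed the edgeR threshold in enterocytes, with log2 fold changes from -1.09 to -0.80, but there 1.91% and 6.37% of all genes were called. Neither passed it without ketogenic replicate 1, at -1.22 for Gsta1 (adjusted p = 0.0841) and -0.80 for Gsta4 (adjusted p = 0.399). Neither passed it without ketogenic replicate 2, at -0.62 for Gsta1 (adjusted p = 0.456) and -1.12 for Gsta4 (adjusted p = 0.165).

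Gstm1 and Gstm3 encode mu-class transferases and lie on the minus strand of chromosome 3, at chr3:108012255-108017973 and chr3:107963696-107969283. Gstm1 was at 45.4 and 63.4 CPM in control enterocytes and at 91.4 and 69.1 CPM in ketogenic ones (0.57 ± 0.20, adjusted p = 0.408). Its log2 fold change was 0.35 without control replicate 1 or without ketogenic replicate 1, and 0.82 without control replicate 2, where it passed the edgeR threshold (adjusted p = 0.0137). Gstm3 was at 57.1 and 56.6 CPM in control and at 124 and 65.9 CPM in ketogenic enterocytes (0.75 ± 0.26, adjusted p = 0.415). For Gstm3 the higher mean rests largely on ketogenic library 1, and the log2 fold change without it was 0.22. For Gstm1, 23% of the 50-base words are shared with other genes, Gstm3 among them.

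Gpx2, the glutathione peroxidase of the gut epithelium (chr12:76792333-76795554, minus strand), was at 809 and 518 CPM in control enterocytes and at 835 and 867 CPM in ketogenic ones. The control libraries differed more from each other than control library 1 did from the ketogenic libraries, and the test was not passed (0.37 ± 0.20, adjusted p = 0.584). The log2 fold change of Gpx2 was 0.73 without control replicate 1, past the edgeR threshold (adjusted p = 0.00693), and 0.07 without control replicate 2 (adjusted p = 0.784). The gene overlaps Fntb on the other strand, and 20% of its 50-base words occur in the pseudogene Gpx2-ps1. Nqo1, which reduces quinones (chr8:107388225-107403206, minus strand), was at 34.0 and 21.0 CPM in control and at 24.9 and 22.0 CPM in ketogenic enterocytes. Its diets overlapped (-0.21 ± 0.22, adjusted p = 0.770), and the log2 fold change was 0.16 without control replicate 1 and -0.54 without control replicate 2, where it passed the edgeR threshold (adjusted p = 0.0409).

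The genes of glutathione synthesis differed little. Gclc, the catalytic subunit of the rate-limiting ligase (chr9:77754535-77794485, plus strand), was at 17.5 and 19.1 CPM in control and at 22.6 and 22.4 CPM in ketogenic enterocytes. Gclm, the modifier subunit whose upstream sequence is printed above, was at 52.4 and 50.7 CPM in control and at 64.5 and 62.3 CPM in ketogenic enterocytes. Both were higher in the ketogenic libraries without overlap, each with a log2 fold change of 0.31, and neither passed the test (SE 0.12 and 0.10, adjusted p = 0.472 and 0.373). Gclm overlaps Gm6061 on its own strand and Gm17494 on the other, and 8.59% of its 50-base words occur in other genes, Ppia among them.

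Outside enterocytes, Akr1b8 rose in transit amplifying cells, the dividing progeny of the stem cells. It was at 3.63 and 1.98 CPM on the control diet and at 10.9 and 9.70 CPM on the ketogenic diet, a log2 fold change of 1.93 ± 0.33 (adjusted p = 0.0153). Here edgeR called 72 of 10069 genes, 0.715%, of which 46 were higher, 0.457%, and Akr1b8 was the one called member of the 9 tested. The call was lost with DESeq2 (adjusted p = 0.0608), which called 0 members and 0.546% of all genes, and without ketogenic replicate 1 (adjusted p = 0.151). Of the other members, Gsta1 was at 13.8 and 7.57 CPM in control and at 3.54 and 5.19 CPM in ketogenic transit amplifying cells (-1.21 ± 0.35, adjusted p = 0.202). Gstm1 was at 52.0 and 72.3 CPM in control and at 94.3 and 70.2 CPM in ketogenic cells, so that the diets overlapped (0.40 ± 0.16, adjusted p = 0.460). Gstm3 was at 29.5 and 35.0 CPM in control and at 47.4 and 35.4 CPM in ketogenic cells (0.36 ± 0.16, adjusted p = 0.514). Akr1b7 had too few UMIs to be tested.

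In stem cells none of the 9 members tested was called, against 0.336% of 9514 genes, and DESeq2 called none, against 0.147%. An unadjusted p under 0.05 was reached by 1 of the 9, against 6.42% of all genes. That gene was Akr1b8, at 1.01 and 0.31 CPM in control and 4.72 and 4.09 CPM in ketogenic stem cells. These levels come from 2, 1, 8 and 14 UMIs, the diets did not overlap, and the log2 fold change was 2.81 ± 0.68 (adjusted p = 0.0814). Relative to enterocytes of the same library, Akr1b8 in stem cells stood at ratios of 0.105 to 0.242. The median enterocyte marker stood at ratios of 0.0831 to 0.184 there, and the lowest at 0.0386 to 0.0568. In transit amplifying cells the ratio of Akr1b8 was 0.448 to 0.870, above the median marker ratio of 0.169 to 0.209. Carry-over of enterocyte RNA into stem cells was not tested as a source of the Akr1b8 counts.

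The diet effect on Akr1b8 was compared directly between types, with the library as a block. Enterocytes minus stem cells gave a log2 difference of -0.32 ± 0.79 (adjusted p = 0.973), and enterocytes minus transit amplifying cells gave 0.65 ± 0.36 (adjusted p = 0.936). Enterocytes minus goblet cells gave 1.41 ± 0.60 (unadjusted p = 0.0288, adjusted p = 0.489). No member passed the test against stem or transit amplifying cells, in which 0.259% and 0.0871% of genes were called. By unadjusted p under 0.05, 3 and 2 of 10 members differed, against 6.94% and 5.32% of all genes, Gsta4 in both at -1.08 ± 0.33 and -0.80 ± 0.22.

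In goblet cells, the mucus-secreting lineage, none of the 8 members tested was called, against 0.521% of 9984 genes, and DESeq2 called none, against 0.24%. An unadjusted p under 0.05 was reached by 1 of the 8, against 8.96% of all genes. That gene was Gstm1, at 86.7 and 84.0 CPM in control and at 119 and 101 CPM in ketogenic goblet cells (0.38 ± 0.11, adjusted p = 0.173). The alpha-class genes overlapped between diets. Gsta4 was at 27.7 and 50.2 CPM in control and at 46.6 and 38.3 CPM in ketogenic goblet cells (0.13 ± 0.20). Gsta1 was at 22.3 and 26.4 CPM in control and at 33.3 and 18.7 CPM in ketogenic goblet cells (0.10 ± 0.22).

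The diet effect on both alpha-class genes differed between enterocytes and goblet cells. The difference was -0.999 ± 0.17 on the log2 scale for Gsta1 (adjusted p = 0.00456) and -1.11 ± 0.20 for Gsta4 (adjusted p = 0.00638), lower in enterocytes. These were the 2 called of the 10 members, and 0.61% of 11637 genes were called. Both calls were lost without control replicate 1, at -0.86 (adjusted p = 0.365) for Gsta1 and -0.87 (adjusted p = 0.588) for Gsta4. In goblet cells the summed villus base genes were at 3466 and 3779 CPM on the control diet and at 2832 and 3722 CPM on the ketogenic diet, so that the diets overlapped. In enterocytes the same list was lower on the ketogenic diet, as given above, and its part in this difference was not tested.

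**Figure D2:**
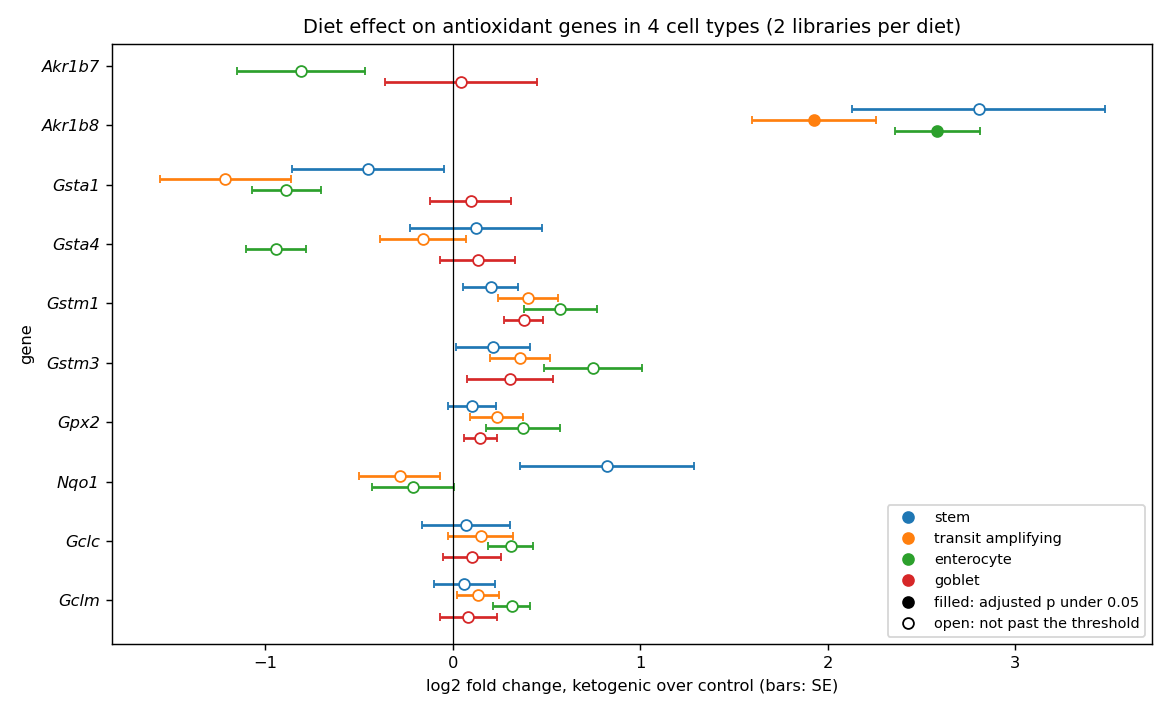
Log2 fold changes (x axis, ketogenic over control, bars are SE, 2 libraries per diet) of the 10 genes in 4 cell types; a gene with too few UMIs in a type has no point. The filled points, past the adjusted threshold, are Akr1b8 in enterocytes (2.59) and in transit amplifying cells (1.93), and Gsta1 and Gsta4 lie left of 0 in enterocytes and near 0 in goblet cells.

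The 3 rare types gave few testable members. Of 2 tested in the Paneth class, 5 in enteroendocrine cells and 4 in tuft cells, none was called, against 0.44%, 0.0582% and 0.0144% of all genes. By unadjusted p under 0.05 the members numbered 1, 1 and 0, against 7.68%, 4.61% and 5.34% of all genes. DESeq2 called none of them, against 0.44%, 0.0291% and 0.0287% of all genes. Gpx2 was at 503 and 558 CPM in the control and at 392 and 353 CPM in the ketogenic Paneth class (-0.47 ± 0.16, adjusted p = 0.542). In this class the summed Paneth markers were at 74034.5 and 40327.8 CPM in control and at 275669 and 164942 CPM in ketogenic libraries. The part of that marker difference in the Gpx2 values was not tested. Gclm was at 154 and 114 CPM in control and at 107 and 75.0 CPM in ketogenic enteroendocrine cells (-0.50 ± 0.22, adjusted p = 0.9997). Akr1b8 was at 4.88 and 8.34 CPM in control and at 10.9 and 23.3 CPM in ketogenic enteroendocrine cells, from 2 to 14 UMIs, and was not tested there.

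The genes differed in which cell types held them. Since the types rest on the same expression data, these levels are a description, given as ranges over the 4 libraries. Nqo1, Gstm3 and Gsta1 were highest in enterocytes, with ranges that did not reach those of the next type. Nqo1 spanned 21.0 to 34.0 CPM in enterocytes, 9.48 to 12.1 CPM in transit amplifying cells and 2.47 to 6.49 CPM in stem cells. Gstm3 followed the same order, at 56.6 to 124 CPM, 29.5 to 47.4 CPM and 25.2 to 33.0 CPM. Gsta1 spanned 66.4 to 158 CPM in enterocytes and 18.7 to 33.3 CPM in goblet cells, with all other types at 17.0 CPM or less. The levels of Nqo1 and Gstm3 thus stepped up from stem through transit amplifying cells to enterocytes, though the stem and transit amplifying ranges of Gstm3 overlapped.

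Gsta4 was shared by goblet cells, at 27.7 to 50.2 CPM, and enterocytes, at 23.5 to 56.9 CPM, and these ranges overlapped. All other types were at 16.8 CPM or less. Gstm1 was highest in goblet cells, at 84.0 to 119 CPM, overlapping the stem, enteroendocrine, transit amplifying and enterocyte ranges between 45.4 and 94.3 CPM. It was lowest in tuft cells, the chemosensory type, at 27.7 to 35.9 CPM.

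Gpx2 was present in every type, from 328 to 477 CPM in tuft cells to 800 to 1132 CPM in enteroendocrine cells, the hormone-secreting type. The ligase subunits had another order. Gclm spanned 75.0 to 154 CPM in enteroendocrine and 89.6 to 123 CPM in tuft cells, against 46.6 to 66.2 CPM in stem cells, transit amplifying cells and enterocytes, 25.4 to 32.6 CPM in goblet cells and 9.10 to 30.8 CPM in the Paneth class. Gclc spanned 24.3 to 44.7 CPM in tuft cells, above enterocytes, goblet, stem and transit amplifying cells, which stayed at 22.6 CPM or less. In the Paneth class it reached 24.3 CPM, from 21 UMIs in all. The enteroendocrine range of Gclc, 18.3 to 51.2 CPM, overlapped all of these types. Akr1b7 stayed at or under 5.95 CPM in every type, with 0 UMIs in the Paneth class. Akr1b8 also had 0 UMIs there, in 1463431 UMIs of the class, which allows a level of up to 2.05 CPM before TMM scaling.

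**Figure D3:**
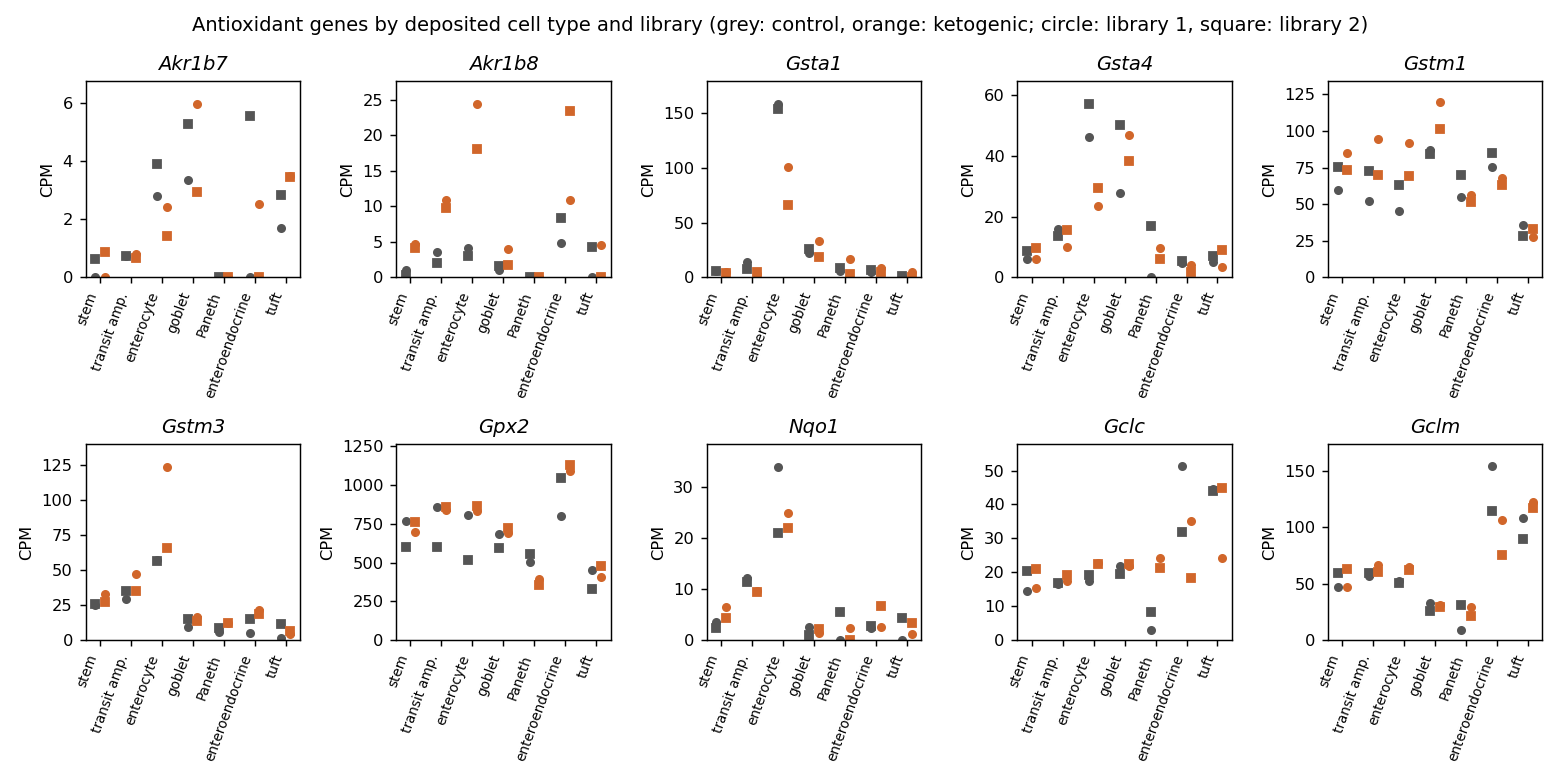
Levels of the 10 genes in CPM (y axis, from 0, a scale for each gene) by deposited cell type (x axis), with a point for each of the 4 libraries. Gsta1, Gstm3 and Nqo1 are highest in enterocytes, Gsta4 overlaps between enterocytes and goblet cells, Gstm1 reaches highest in goblet cells, and Gclm is highest in enteroendocrine and tuft cells.

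Enterocytes were further ordered within each library by the difference between villus tip and villus base genes, and cut into 2 equal groups and, more finely, into 5 equal bins. Villus base genes mark the lower villus in published zonation, and tip genes its end. The 2 groups are called base-rich and base-poor after this rule, since their other markers did not follow a maturation order. The tip genes of the score were not higher in the base-poor group either. Their sum was 266 and 107 CPM in base-rich and 145 and 84.6 CPM in base-poor control cells. In ketogenic cells it was 90.3 and 85.5 CPM against 75.4 and 52.8 CPM. The bin richest in villus base RNA also held more of it than the poorest in each library, at ratios of 1.075 to 2.19. The base-poor group held more stem markers, at 780 to 1210 CPM against 148 to 416 CPM, and fewer enterocyte markers, at 1936 to 3318 CPM against 4585 to 7926 CPM. Summed immune markers were at 15.8 and 31.0 CPM in control and at 0.27 and 35.1 CPM in ketogenic base-poor cells. In the base-rich group they were at 0 to 0.68 CPM. Their part in the results of the groups was not tested. The score is a gradient rather than a set of types, and 336 to 469 cells of a library lay within 0.1 of the cut between the 2 groups.

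Akr1b8 rose in the base-rich group, where 0.187% of 10693 genes were called and 0.0748% were called as higher. It was at 5.33 and 4.74 CPM on the control diet and at 38.5 and 28.8 CPM on the ketogenic diet (2.76 ± 0.22, adjusted p = 0.0090). Without ketogenic replicate 1 the adjusted p was 0.0605. In the base-poor group no member was called by edgeR, against 0.00905% of 11044 genes, although 4 of the 10 had an unadjusted p under 0.05, against 8.25% of genes, and DESeq2 called Akr1b8, against 0.516%. There Akr1b8 was at 3.08 and 1.07 CPM in control and at 10.9 and 6.81 CPM in ketogenic cells (2.09 ± 0.46, adjusted p = 0.333). Its diet effect did not pass the test of a difference between the 2 groups (-0.64 ± 0.38, base-poor minus base-rich, adjusted p = 0.962).

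Gstm3 was the 1 member whose diet effect passed that test, in which 0.0799% of 11265 genes were called. In the base-rich group it was at 66.4 and 72.5 CPM in control and at 192 and 99.6 CPM in ketogenic cells (1.10 ± 0.29). In the base-poor group it was at 48.3 and 39.9 CPM in control and at 58.8 and 30.4 CPM in ketogenic cells (0.02 ± 0.28). The difference was -1.05 ± 0.14 (adjusted p = 0.0234). It was no longer past the threshold without control replicate 1 (adjusted p = 0.0556), without ketogenic replicate 1 (adjusted p = 0.195), or with the groups cut by enterocyte against stem and transit amplifying markers (-0.43, adjusted p = 0.937), an alternative chosen after seeing the data.

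Gsta4 was lower on the ketogenic diet by a like amount in both groups, at -0.95 ± 0.17 in the base-rich and -0.88 ± 0.16 in the base-poor group, without passing the edgeR test in either (adjusted p = 0.127 and 0.244). In the base-rich group DESeq2 called 3 members, against 1.3% of all genes: Akr1b8, Gsta4 (adjusted p = 0.00215) and Gstm3 (adjusted p = 0.00539). Gsta1 was at 232 and 246 CPM in control and at 175 and 119 CPM in ketogenic base-rich cells (-0.68 ± 0.20, adjusted p = 0.356). In base-poor cells it was at 88.6 and 55.5 CPM in control and at 29.8 and 11.1 CPM in ketogenic libraries (-1.82 ± 0.42, adjusted p = 0.365). Villus base RNA still differed by diet within the base-rich group, at 15092 and 11583 CPM in control and at 7148 and 7350 CPM in ketogenic cells.

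Over the 5 bins the genes showed different slopes. From the bin richest in villus base RNA to the poorest, Nqo1 went from 50.7 to 6.98 CPM in control library 1 and from 39.2 to 4.91 CPM in ketogenic library 1. Gsta1 went from 231 to 39.4 CPM and from 230 to 6.66 CPM in the same libraries, and Gsta4 from 71.8 to 10.7 CPM and from 50.9 to 8.07 CPM. Akr1b8 went from 45.8 to 4.21 CPM and from 34.8 to 3.47 CPM in ketogenic libraries 1 and 2, and from 5.19 to 1.61 CPM and from 4.26 to 0.557 CPM in control libraries 1 and 2. The high Akr1b8 levels of the ketogenic libraries thus sat mostly in the 3 bins with most villus base RNA.

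Gstm1 ran the other way in controls, from 24.2 to 67.1 CPM in library 1 and from 44.9 to 81.9 CPM in library 2. Over the bins of ketogenic libraries 1 and 2 it ranged from 87.8 to 98.2 CPM and from 58.3 to 77.1 CPM. Gpx2 and Gclm ended near where they began in all 4 libraries, with first-to-last ratios of 0.920 to 1.09 and 0.889 to 1.13. Between these ends Gpx2 dipped in the control libraries, from 900 CPM in the first bin to 700 CPM in the second in library 1 and from 542 to 425 CPM in library 2. These are descriptions of sums within a library, with no test.

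**Figure D4:**
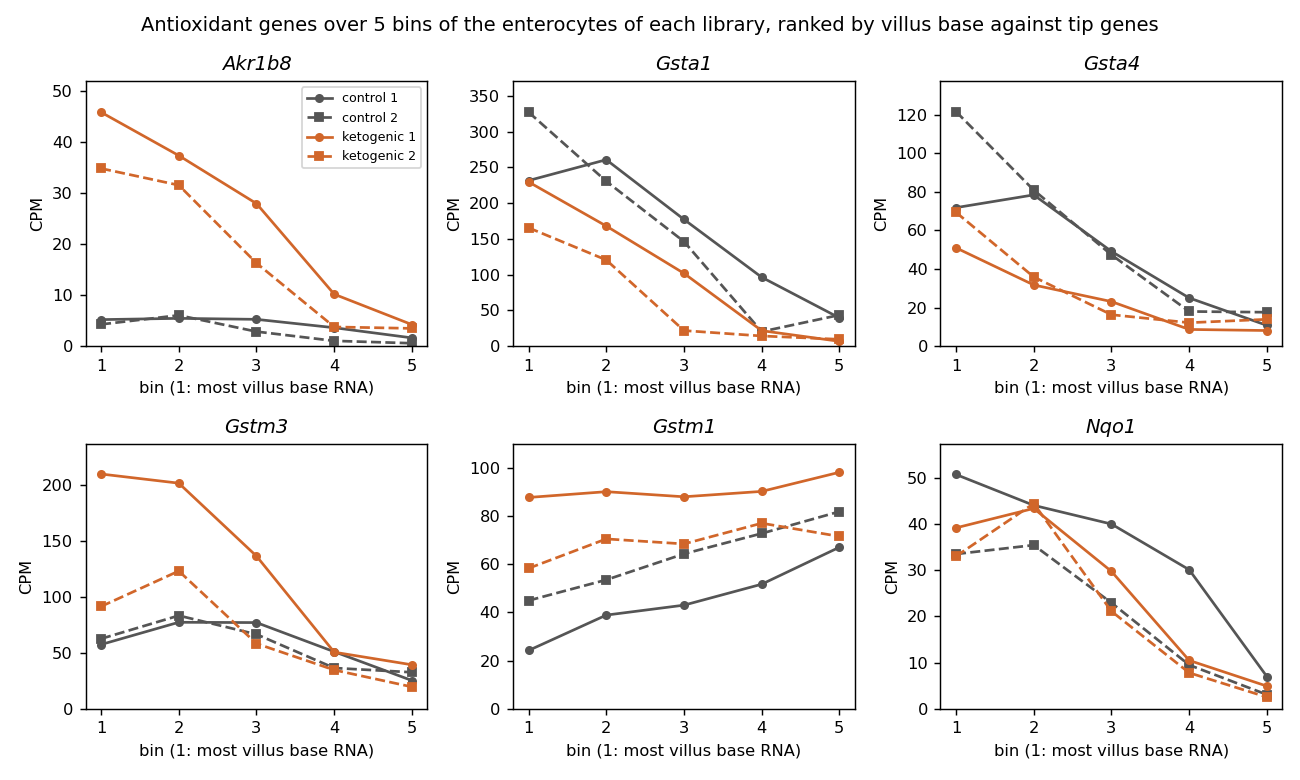
Levels of 6 genes in CPM (y axis, from 0) over 5 bins of the enterocytes of each library (x axis, bin 1 is richest in villus base RNA); lines join the bins of a library. Akr1b8 in ketogenic library 1 goes from 45.8 to 4.21 CPM, Nqo1 falls off in all 4 libraries, and Gstm1 climbs in both control libraries.

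Other genes of the same systems were counted from fixed lists. None of 9 tested NRF2 system regulators was called in enterocytes, among them Nfe2l2, which encodes NRF2, at 158 and 126 CPM in control and 127 and 107 CPM in ketogenic libraries (-0.27 ± 0.14, adjusted p = 0.584). The medians of the lists in enterocytes lay between -0.13 and 0.19 on the log2 scale. None of 18 tested further glutathione transferases was called, nor of 9 aldo-keto reductases, 14 genes of glutathione supply, 16 peroxidases, peroxiredoxins, thioredoxins and superoxide dismutases, or 7 xenobiotic receptors. Of all genes tested in enterocytes, edgeR called 0.18%. By unadjusted p under 0.05 these lists gave 0, 4, 1, 2, 2 and 2 genes, in that order, against 9.91% of all genes. DESeq2 called 1 gene on them in enterocytes, the receptor Ppard (adjusted p = 0.00151), and 1.5% of all genes.

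Of 19 tested further NRF2-type targets, edgeR called 1 as higher in enterocytes and none as lower, against 0.0769% and 0.103% of all genes. An unadjusted p under 0.05 was reached by 5 of the 19, 2 higher and 3 lower, against 9.91% of all genes. The called gene was Me1, the cytosolic malic enzyme, which makes NADPH from malate. Me1 was at 5.55 and 3.99 CPM in control and at 55.6 and 28.4 CPM in ketogenic enterocytes (3.15 ± 0.34, adjusted p = 0.0366). It also rose in transit amplifying cells, from 1.94 and 1.44 CPM to 16.6 and 7.90 CPM (2.85 ± 0.44, adjusted p = 0.00833, and 0.0989 without ketogenic replicate 1). In goblet cells it rose from 1.54 and 1.59 CPM to 10.9 and 7.21 CPM (2.52 ± 0.40, adjusted p = 0.00576). In stem cells it was at 1.51 and 0 CPM in control and at 4.72 and 5.26 CPM in ketogenic libraries (adjusted p = 0.0727). Hmox1, another textbook NRF2 target, stayed under 1 CPM in every enterocyte library. Of the receptors, Ppard differed in its diet effect between enterocytes and goblet cells (-0.86 ± 0.17, adjusted p = 0.0134). The adjusted p was 0.486 without control replicate 1, 0.111 without control replicate 2 and 0.273 without ketogenic replicate 1. Ppard was at 60.8 and 49.0 CPM in control and at 27.0 and 33.5 CPM in ketogenic enterocytes, which did not pass edgeR's test there (-0.84 ± 0.16, adjusted p = 0.123).

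The genes most alike to each member were taken by Pearson's r of log2 CPM over 28 sums, 7 types in 4 libraries, among 3366 genes. The sums share libraries and types, so r is a description. Nqo1 was most like Uqcrfs1 (r = 0.909), Lpcat3 (0.902) and Atp5l (0.858), and Gsta1 most like Tm4sf5 (0.900), Yif1a (0.887) and St3gal4 (0.846). Gstm3 was most like Cmbl (0.884), Pon2 (0.882) and Psap (0.881), and Gsta4 most like Ebp (0.853), Pls1 (0.847) and Casp1 (0.838). Gpx2 was most like Cotl1 (0.869), Hnrnpa3 (0.804) and Tssc4 (0.794), and Gstm1 most like Odc1 (0.867), Tagln2 (0.856) and Taf15 (0.850). Gclm was most like Snx6 (0.823), Ccni (0.819) and Alkbh7 (0.814). Gclc, Akr1b7 and Akr1b8 had no gene above 0.762, with Dpcd, Arpc2 (0.758) and Cda (0.743) in first place, and the counts of the reductases are sparse in several types. Among the members themselves, Gstm3 and Nqo1 were closest (0.800), then Gsta1 and Gsta4 (0.707), Gstm1 and Gpx2 (0.689), and Gsta1 and Gstm3 (0.638). Gclc and Gclm stood at 0.596.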

How the data were processed

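The authors deposited unnormalized UMI counts for every gene in every cell, and a cell table that assigns a library and a type. The submitters' processing notes name Cell Ranger 2.1.0 and mm10, and the labels' protocols name a 10x 3' v2 kit. The sources used here do not say how cells were filtered or typed. Doublets were left as deposited. Deposited counts were summed per library and type, since cells are not replicates. Sums were tested with edgeR 4.0.16 in R 4.3.3 (quasi-likelihood test, TMM, filterByExpr by diet), and diet effects were compared between types with the library as a block. DESeq2 1.42.0 was an alternative, and so were RLE factors, no filter on low counts, cells under 10% mitochondrial UMIs, each library left out in turn, and a replicate block. All 10 genes were named in advance. From each of 7 lists, called genes were named, up to 4 per type, and for each member its 3 most alike genes at a mean log2 CPM of 5 or more. Members and lists were chosen with earlier results of these data known. The 2 groups of enterocytes were first planned as immature and mature enterocytes, names dropped because marker levels went against them. Nfe2l2, Hmox1 and Akr1b10 were named after their values were seen. Tests were checked on simulated counts, with changes planted only in genes above the average level of Akr1b8 in enterocytes, transit amplifying and stem cells. The check thus did not cover the recovery of changes at levels as low as those of Akr1b8. Replicates were not copies, with chi-square 30.1 and 22.6 times its degrees of freedom. Gene positions are from GENCODE M21, and sequences from RefSeq. The limit for a count of 0 uses 3 counts and covers counting error only.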

Additional observations from a re-analysis of the deposited data

Results flagged for a closer look

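Each of these 3 results is a diet effect that differed between groups of cells by a test of the difference itself. Gsta1 was at 158 and 153 CPM in control and at 100 and 66.4 CPM in ketogenic enterocytes, while its diets overlapped in goblet cells. The difference between the diet effects was -0.999 on the log2 scale. Gsta4 showed a difference of -1.11 between the same types. Both calls were lost without control replicate 1, at edgeR adjusted p-values of 0.365 and 0.588. Gstm3 differed in its diet effect between the base-poor and the base-rich group of enterocytes by -1.05. That call was lost without control replicate 1 (edgeR adjusted p = 0.0556), without ketogenic replicate 1 (0.195) and with the groups cut by the other markers (-0.43, 0.937). In the base-poor group its diets overlapped.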

How the results depend on the processing

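Of 13 counts of called members, the 112 alternative values stayed the same or within 1.5 times in 82 cases and moved in 30. Many of the 82 were counts of 0 that stayed 0, as in all 9 alternatives for Paneth, enteroendocrine and tuft cells. For enterocytes 3 of 9 alternatives stayed and 6 moved, and for transit amplifying cells 4 stayed and 5 moved. The causes of the moves were not tested. In enterocytes, where 1 member was called, DESeq2, no filter on low counts and the replicate block each gave 3 and cells under 10% mitochondrial UMIs gave 2. In transit amplifying cells DESeq2 gave 0 and no filter 2. In the base-rich group DESeq2 gave 3, no filter 5 and the replicate block 5. In the base-poor group DESeq2 gave 1 and the replicate block 3. In stem cells the replicate block gave 1. The difference between the base-rich and base-poor groups gave 3 members with no filter and 0 with groups cut by enterocyte against stem and transit amplifying markers. Leaving out 1 library gave 1 to 5 called members in enterocytes, 0 to 3 in transit amplifying cells, 0 to 1 in goblet cells, 0 to 3 in the base-rich and 0 to 5 in the base-poor group. For differences it gave 0 to 1 between enterocytes and transit amplifying cells, 0 to 2 between enterocytes and goblet cells and 0 to 2 between the base-rich and base-poor groups.

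Of 131 alternative values of 15 results on the 10 single genes, 108 kept direction and side of the threshold, 8 lost and 14 gained a call. The 1 reversed value was Nqo1 in enterocytes, at 0.16 without control replicate 1, in a range of -0.54 to 0.16 over the libraries left out. Same-numbered libraries did not deviate together (r = 0.0796 in enterocytes and 0.0150 in stem cells), so the replicate block, which raised the genes called in enterocytes from 21 to 137, does not rest on a shown pairing.

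Counts over all genes depended on the setting too. In enterocytes 21 genes became 176 with DESeq2, 313 with no filter, 51 in cells under 10% mitochondrial UMIs, and 228, 760, 12 and 32 without control library 1, control library 2, ketogenic library 1 and ketogenic library 2. In transit amplifying cells 72 became 279 with no filter, 200 with the block and 37 to 290 without a library. In stem cells 32 became 14 with DESeq2, 74 with no filter, 99 with the block and 48 to 100 without a library. In goblet cells 52 became 24 with DESeq2, 104 with the block and 99 to 189 without a library. Between enterocytes and goblet cells 71 became 158 with no filter and 6 to 115 without a library. Over the settings, 20 genes in the base-rich group became 5 to 439, 1 in the base-poor group 0 to 1160, 13 in the Paneth class 2 to 57, 4 in enteroendocrine cells 2 to 94 and 1 in tuft cells 0 to 37. Likewise 30 between enterocytes and stem cells became 14 to 358, 10 between enterocytes and transit amplifying cells 4 to 220, and 9 between the base-rich and base-poor groups 2 to 125. With 2 libraries per diet and few UMIs for Akr1b7 and Akr1b8 outside enterocytes, a difference there may be missed at this depth.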
